A study of Mus musculus with 3 samples.

Results

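The comparison set 1 chromatin immunoprecipitation sequencing library made with an antibody against OGT beside 1 library made with an antibody against H2B S112GlcNAc. Both came from mouse embryonic stem (ES) cells of the C57BL/6 strain, grown feeder-free on gelatin with serum and ESGRO, without any genetic change or treatment in the labels. The members were these 2 of the 3 libraries of the study, chosen by their antibody labels. The remaining library, made with an in-house TET2 antibody from the same kind of cells, served only to mark bins or as a value set beside. The OGT antibody was a commercial one from Novus and the H2B S112GlcNAc antibody came from Ryoji Fujiki. No input or IgG library was used here, so antibody-bound DNA and places dense for other reasons cannot be told apart in 1 library. With 1 library a side no difference has a replicate check, no p-value is given, and every statement describes these libraries. The cell type could not be checked by markers, since the libraries hold genomic DNA.

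OGT is the enzyme that attaches a single N-acetylglucosamine sugar (O-GlcNAc) to serines and threonines of nuclear and cytoplasmic proteins. Histone H2B carrying this sugar on one of its serines (S112GlcNAc) is a reported product of OGT on chromatin. TET2 oxidises 5-methylcytosine in DNA and is a known binding partner of OGT in ES cells. The question of the comparison is whether the enzyme and its histone product lie at the same places.

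The OGT library held 2179445 aligned reads of 44 bp and the H2B S112GlcNAc library 4647963. On chromosomes 1 to 19 these were 1814416 and 3886030 distinct positions, where a position is a 5′ end on 1 strand counted once. Repeated reads made up 14.0% of the OGT and 13.7% of the H2B S112GlcNAc reads there, and 47.7% and 47.5% of positions lay on the minus strand. Unless stated otherwise, H2B S112GlcNAc values below are from 1814416 of its positions drawn at random, so that both sides have the same number of distinct positions, called equal depth here. With reads matched in number instead, H2B S112GlcNAc kept 1889288 distinct positions. The 2071614 positions not drawn served as a second count of the same library. That count shares its cells, antibody and amplification with the drawn one and is no replicate. All reads of both libraries named 1 flow-cell lane, and no read name was in both.

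Over wide stretches the 2 libraries followed each other closely. Across 24017 bins of 100 kb, Pearson's r was 0.986 and Spearman's rho 0.927. Bins are neighbouring pieces of the same 2 libraries, so these are descriptions. In 94.4% of these bins the difference between the counts was within the 95% bound for counting error, about 2 square roots of their sum. The squared difference over the sum averaged 1.24, where counting error alone gives 1. Across the 239381 bins of 10 kb with a position in either library that average was 1.04. Across 1623261 such bins of 1 kb it was 1.01. A bin with 1 position in all gives exactly 1 whatever the libraries do, so the 1 kb average says little. A mean of 0.853 positions per 1 kb bin leaves little to compare in a single small bin, and Spearman's rho there was 0.135.

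Counting noise lowers a correlation between thin libraries. It was corrected for by taking from each variance the mean count, which is the variance that counting alone gives. The corrected value was 0.991 in 100 kb bins, 0.986 in 10 kb bins and 0.969 in 1 kb bins. Over single chromosomes the 1 kb value ran from 0.507 to 0.997. In 1 kb and 10 kb bins these values rested in part on a few dense bins. A shared dense bin is a 1 kb bin in the top 0.1% of both libraries, and 1175 bins met this. Outside them the noise-corrected correlation was 0.960, 0.862 and 0.734 in 100 kb, 10 kb and 1 kb bins. Outside these and outside the bins that differed by the rule of size below, it was 1.0, 0.993 and 0.965. The last set was chosen by the difference itself, which raises the correlation. For TET2 and H2B S112GlcNAc the values outside shared dense bins were 0.993, 0.973 and 0.916, and for TET2 and OGT 0.954, 0.846 and 0.703. With the bins that differed left out as well, they were 0.994, 0.973 and 0.916 for TET2 and H2B S112GlcNAc, and 0.993, 0.972 and 0.923 for TET2 and OGT.

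The places of highest density were partly the same. Of the 247 top 0.1% bins of 10 kb in OGT, 163 were also in the top 0.1% of H2B S112GlcNAc, or 66.0% of the OGT bins (exact 95% interval 59.7 to 71.9) and 63.4% of the 257 H2B S112GlcNAc bins. Of all 10 kb bins 0.107% were top H2B S112GlcNAc bins. In 1 kb bins the share was 39.5% of 3001 OGT bins (37.7 to 41.2) and 32.1% of 3691 H2B S112GlcNAc bins, where 0.173% of all 1 kb bins were top H2B S112GlcNAc bins. Without the shared dense bins the share was 9.11% of the OGT top bins in 1 kb and 30.1% in 10 kb. That fall follows from leaving out bins chosen for being top in both libraries. Of all bins left, 0.125% in 1 kb and 0.101% in 10 kb were top H2B S112GlcNAc bins. The lowest top bins of 1 kb had 8 OGT and 7 H2B S112GlcNAc positions, so their membership is subject to counting error.

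The covariance of 1 kb counts at a distance separates narrow from broad shared density, since counting noise adds nothing to it between bins or between libraries. It is given over the product of the 2 means. Outside shared dense bins, OGT with H2B S112GlcNAc gave 0.598 in the same bin, 0.373 in bins 1 kb apart, 0.303 at 10 kb, 0.262 at 100 kb and 0.214 at 500 kb. Most of the shared covariance in bins 1 kb apart was thus still present 100 kb apart. OGT with itself gave 1.04 in the same bin and 0.496 at 1 kb, against 0.564 and 0.365 for H2B S112GlcNAc with itself. With the bins higher in OGT left out as well, OGT with itself fell to 0.659 and 0.380. The covariance between the libraries over the root of the product of their own covariances was then 0.974 in the same bin and 1.0 at 1 kb, at 10 kb and at 100 kb. Leaving out bins because OGT was high lowers the OGT values by construction. The value between libraries changed little, from 0.598 to 0.594.

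**Figure D1:**
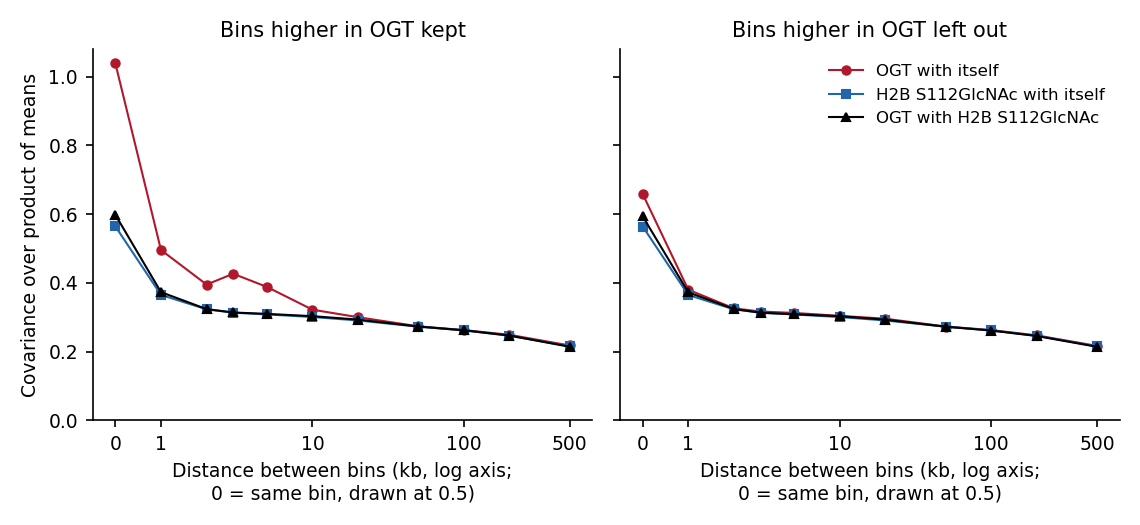
Covariance of 1 kb counts, divided by the product of the means (y axis), against the distance between bins in kb (log x axis), outside shared dense bins, with bins higher in OGT kept (left) or left out (right). OGT with itself stands above the other lines up to about 10 kb at the left, from 1.04 in the same bin, and lies near them at the right from 1 kb on.

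The densest places in both libraries were a small set of stretches in which the pooled ratio depended on the order of counting. The 1175 shared dense bins held 2.91% of the OGT positions and 2.12% of all H2B S112GlcNAc positions, but 10.9% and 10.7% of the reads. With positions counted once and then drawn, OGT was 1.37-fold H2B S112GlcNAc there. With the H2B S112GlcNAc reads drawn to the OGT read number first and then counted once, the ratio was 1.03, and with every read kept it was 1.02. In these bins an H2B S112GlcNAc position carried 5.86 reads and an OGT position 4.35, against 1.06 and 1.07 elsewhere. The pooled ratio of positions in these bins thus moved with the order of drawing and counting, and no difference between the libraries is read from it. Single stretches did not all move. On chromosome 11 at 3000001 to 3100000 the ratio was 1.01 in positions and in scaled reads. On chromosome 17 at 4626001 to 4627000 it was 11.6 and 15.2. With reads drawn first, 13 shared dense bins of 1 kb were higher in OGT by the rule of size below.

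The stretch with the most distinct positions lay on chromosome 9 at 3000001 to 3039000 (mm9), beside the first base with a read in any library. It held 20723 OGT and 15099 drawn H2B S112GlcNAc positions, and its ratio of reads scaled to the reads on chromosomes 1 to 19 was 0.858. The stretch with the most reads, on chromosome 2 at 98502001 to 98508000, had 3191 and 1726 positions, and the ratio of scaled reads was 1.03. The stretch at 39979001 to 39986000 of chromosome 17 had 2285 against 2328 positions, and the ratio of scaled reads was 0.744. The 1 kb bin with the highest smaller count was at 3000001 to 3001000 of chromosome 9, with 1014 OGT and 649 H2B S112GlcNAc positions. Of the 8 bins named by that rule, 6 lay in the chromosome 9 stretch and 2 in the chromosome 17 stretch. TET2 was dense in all 8, with 792 to 1224 positions in its undrawn library.

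Bins that differed were found by a rule of size and not by a test. In 1 kb and 10 kb bins the ratio had to be at least 4 with an exact 95% interval beyond 2, and in 100 kb bins at least 1.5 with an interval beyond 1.2. The interval covers counting error in 1 bin and is not adjusted over bins. OGT was higher in 136 of 2127816 bins of 1 kb (0.00639%) and H2B S112GlcNAc in 5 (0.000235%). Of the 136 bins, 16 were shared dense bins, and 120 were left without them. In 10 kb bins OGT was higher in 83 of 239518 (0.0347%) and H2B S112GlcNAc in 36 (0.015%). In 100 kb bins OGT was higher in 65 of 24017 (0.271%) and H2B S112GlcNAc in 33 (0.137%). All 136 bins of 1 kb together held 0.363% of the OGT positions, so the places that differed were a very small part of the OGT library.

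The loci higher in OGT were few, and the rule itself required at least 4 times the drawn H2B S112GlcNAc count. Neighbouring bins joined gave 74 loci in 10 kb bins, of which 10 held shared dense bins. The 64 others held 5420 OGT and 348 H2B S112GlcNAc positions, and the first 8 of them held 66.8% of the OGT positions. The leading one, on chromosome 11 at 87880001 to 87900000, had 1037 OGT and 31 H2B S112GlcNAc positions, a ratio of 33.5 (23.4 to 49.5). All of the H2B S112GlcNAc library put 57 positions there and the TET2 library 49. The locus on chromosome 4 at 49650001 to 49670000 had 453 against 11, a ratio of 41.2 (22.8 to 83.1). On chromosome 7 at 134730001 to 134750000 the counts were 894 and 33, a ratio of 27.1 (19.1 to 39.6), and each OGT position there carried 6.24 reads. Repeats were fewer in the other 7 of these loci, at 1.18 to 1.90 reads per OGT position.

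The remaining loci among the first 8 were of the same kind. On chromosome 18 at 7900001 to 7920000 OGT had 209 positions and H2B S112GlcNAc 6. Chromosome 14 held a pair of loci close together, at 63310001 to 63340000 with 257 against 12, and at 63370001 to 63380000 with 190 against 12. The locus at 106390001 to 106400000 of chromosome 7 had 151 against 8. That at 56440001 to 56460000 of chromosome 17 had 427 against 35 and the lowest ratio of the 8, 12.2 (8.64 to 17.8). TET2, in its full library of 3188332 positions, had 14 to 72 positions at these 8 loci, fewer than OGT at each. Plus and minus strands were both present in each, for example 526 and 511 positions at the chromosome 11 locus.

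At finer scale these loci were not raised throughout. A block is a run of 100 bp stretches with at least 5 OGT positions each. In 26 of the 64 loci blocks held over 50% of the OGT positions, and together 103 blocks with a median width of 200 bp held 90.4% of the 4845 OGT positions on 5.23% of the width. The blocks held 4378 OGT and 68 H2B S112GlcNAc positions. They were chosen by their OGT count, so that ratio is a description. More than 200 bp from a block the same loci had 0.937 OGT, 0.649 H2B S112GlcNAc and 0.868 TET2 positions per kb at equal depth, a ratio of OGT to H2B S112GlcNAc of 1.45 (1.2 to 1.75). The 10 kb bins had been chosen for a high OGT and a low H2B S112GlcNAc count, which also moves this ratio upwards. The chromosome 11 locus had 5 blocks, of up to 800 bp, with 1013 OGT and 3 H2B S112GlcNAc positions, and 14 OGT against 24 H2B S112GlcNAc positions away from them. The chromosome 4 locus had 15 blocks of at most 200 bp, with 421 OGT positions and 1 of H2B S112GlcNAc. The chromosome 7 locus at 134730001 had 12 blocks, with 858 against 12. The mean density of OGT over chromosomes 1 to 19 was 0.734 positions per kb.

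**Figure D2:**
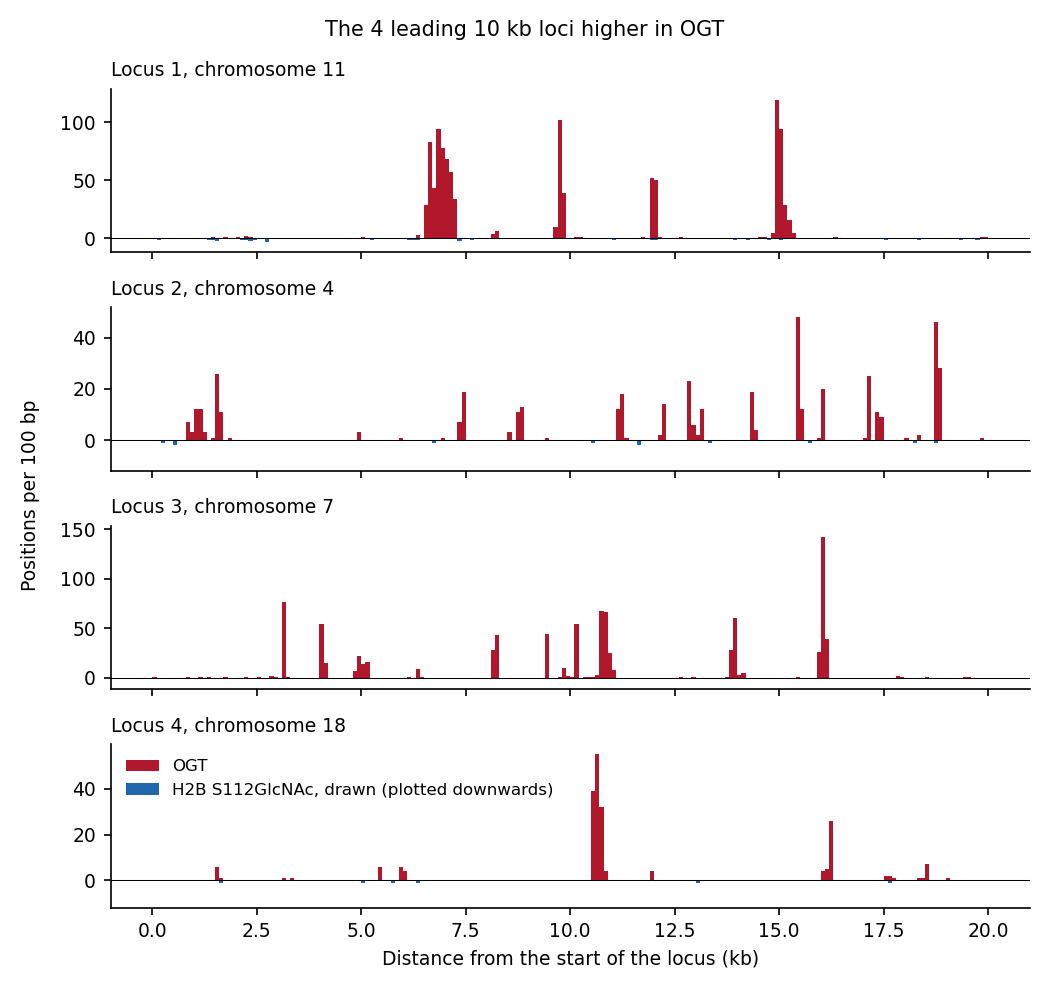
Positions per 100 bp (y axis) of OGT upwards and of drawn H2B S112GlcNAc downwards along the 4 leading 10 kb loci higher in OGT, against the distance from the start of the locus in kb (x axis). OGT stands in narrow blocks with empty stretches between them, up to 142 positions per 100 bp at the chromosome 7 locus, and H2B S112GlcNAc has at most 3 positions in any 100 bp.

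In 1 kb bins, the 106 loci higher in OGT had 10 to 650 OGT positions. The first was on chromosome 11 at 87886001 to 87890000, with 650 OGT and 6 H2B S112GlcNAc positions, a ratio of 108 (49.5 to 296). At 7910001 to 7911000 of chromosome 18 OGT had 130 positions and H2B S112GlcNAc none, neither drawn nor in its whole library, and TET2 had 2. The lower bound of the interval of the ratio was 34.7. On chromosome 4 at 49651001 to 49652000 OGT had 66 positions and H2B S112GlcNAc none. The remaining 5 of the first 8 were further parts of the chromosome 4, 7 and 11 loci above.

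The other 38 loci of 10 kb, in which blocks did not hold most OGT positions, were a different set. Each had 10 to 72 OGT positions, 575 in all against 42 drawn H2B S112GlcNAc positions. The mean over all 10 kb bins was 7.58 positions in each library. A locus with 10 OGT positions thus met the rule only with a drawn H2B S112GlcNAc count far below that mean. TET2 had 274 positions there at equal depth. Their lower counts leave wide intervals. Another random draw of H2B S112GlcNAc positions gave 88 bins of 10 kb higher in OGT, and 48 of the 83 were among them. In the 83 bins the H2B S112GlcNAc positions not drawn came to 786 at equal depth, against 532 drawn and 6552 OGT. In 1 kb bins 116 of the 136 met the rule in both draws.

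Bins higher in H2B S112GlcNAc mostly did not repeat within that library. The OGT counts were the same in every draw, so bins higher in OGT had no such check of their own OGT count. How often bins of each direction met the rule again is thus not a like comparison. The 36 bins of 10 kb held 458 drawn H2B S112GlcNAc positions against 20 of OGT. The positions not drawn came to 212 there at equal depth, close to the 203 of TET2. Only 4 of the 36 met the rule again in another draw, which gave 45 bins. Of the 5 bins of 1 kb, 1 met it again, and their 53 drawn positions stood beside 13.1 not drawn. All 36 stood alone and had at most 3 OGT positions each. The first was on chromosome 7 at 88980001 to 88990000, with 1 OGT and 18 drawn H2B S112GlcNAc positions of 26 in the full library. The second was on chromosome 5 at 57320001 to 57330000, with no OGT and 12 drawn positions. Against the whole H2B S112GlcNAc library no 1 kb bin and 32 bins of 10 kb were higher in it, and 6 of the 36 were among the 32.

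The 100 kb bins higher in OGT were a mixed set. Of the 65 bins, 24 held shared dense bins, 26 held a smaller bin higher in OGT, some held both and 25 held neither. Of all 24017 bins of 100 kb, 109 held a smaller bin higher in OGT and 23341 held no shared dense bin. No difference between the libraries is read from the pooled ratio of shared dense bins. The 25 with neither had 1927 OGT and 1042 drawn H2B S112GlcNAc positions, and the H2B S112GlcNAc positions not drawn came to 1486 at equal depth. The leading 100 kb bin was on chromosome 11 at 87800001 to 87900000, with 1123 against 120. On chromosome 3 at 133100001 to 133200000 the counts were 274 and 77, a ratio of 3.56 (2.75 to 4.64). For the 33 bins higher in H2B S112GlcNAc the counts were 1208 OGT and 2290 drawn positions, and those not drawn came to 1808. The first of them, on chromosome 8 at 65500001 to 65600000, had 20 OGT and 55 drawn positions of 102 in the full library, a ratio of 0.364 (0.206 to 0.616). In another draw 38 of the 65 and 9 of the 33 met the rule, and with reads drawn first 30 and 8 did.

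Between the extremes the libraries differed by a small and graded amount. When 1 kb bins were grouped by their TET2 count, which neither library had set, both rose with it from 1 TET2 position upwards. Bins with 1 had means of 0.648 OGT and 0.662 H2B S112GlcNAc positions, below those of bins with none. Bins with none entered only where OGT or H2B S112GlcNAc had a position, which raises their means. Bins with no TET2 position had a mean of 0.667 OGT and 0.692 H2B S112GlcNAc positions (ratio 0.965, 95% interval 0.961 to 0.969). Bins with 3 had 1.07 of each, and the ratio was 1.0. Bins with 11 to 15 had 4.17 OGT and 3.65 H2B S112GlcNAc positions, a ratio of 1.14 (1.12 to 1.16). Bins with 16 to 30 had 6.99 and 5.65, a ratio of 1.24 (1.21 to 1.27). With reads drawn first the ratio at no TET2 position was 0.974 (0.970 to 0.978), and these last ratios were 1.15 and 1.2, and with bins higher in OGT left out 1.12 and 1.19. In the 506 bins with 31 or more TET2 positions the ratio was 1.39 in positions and 0.989 with reads drawn first, so the order of counting decides it there. OGT was thus more concentrated than H2B S112GlcNAc in bins of 6 to 30 TET2 positions and less so in bins of 0 to 2, in each of these settings. Shared dense bins were kept in all such ratios by count, and the ratios without them were not computed.

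**Figure D3:**
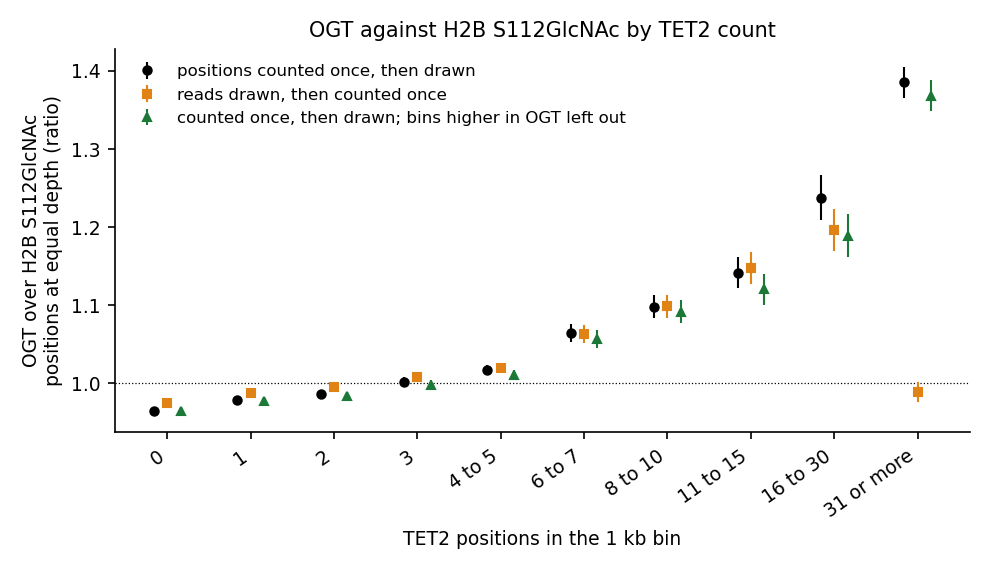
Ratio of OGT to H2B S112GlcNAc positions at equal depth (y axis) in 1 kb bins grouped by TET2 count (x axis), with exact 95% intervals for counting error, for 2 orders of counting and with bins higher in OGT left out. The ratio rises from 0.965 at no TET2 position to 1.24 at 16 to 30, and in the highest group it is 1.39 or 0.989 by the order of counting.

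The count of H2B S112GlcNAc positions that were not drawn gave a like gradient. Bins with none of them had a ratio of OGT to drawn H2B S112GlcNAc of 0.979 (0.975 to 0.982). Bins with 6 to 7 had 1.09 (1.07 to 1.11) and bins with 8 to 10 had 1.19 (1.16 to 1.22), or 1.13 (1.1 to 1.16) with bins higher in OGT left out. These groups have no value with reads drawn first, and the shared dense bins, where H2B S112GlcNAc was densest, gave 1.03 in that order. In 10 kb bins grouped by TET2 count the ratio was 0.978 at 0 to 3 TET2 positions and 1.06 at 47 to 80, or 0.988 and 1.05 with reads drawn first. At 81 or more it was 1.28, and 0.975 with reads drawn first. In 100 kb bins it ran from 0.981 at 4 to 59 TET2 positions to 1.01 at 379 to 647. In the 25 bins of 100 kb with 648 or more it was 1.28, and 0.945 with reads drawn first.

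Around TET2-rich bins of 1 kb, those with 12 to 40 TET2 positions, both libraries were denser than in the flanks, OGT by the larger fold. In 6743 such bins OGT averaged 5.61 positions per kb within 500 bp of the centre and 1.71 between 2 and 5 kb away, a fold of 3.29. H2B S112GlcNAc averaged 4.67 and 1.68, a fold of 2.78, or 2.84 with reads drawn first. In the 6709 bins outside those higher in OGT the folds were 3.18 and 2.77. The place and the width of the central rise are set by the choice of 1 kb bins and are not compared. The 2 flanks differed by less than the 2 centres. Around 2926 bins with 8 to 30 of the H2B S112GlcNAc positions not drawn, the folds were 2.80 for OGT and 2.41 for H2B S112GlcNAc.

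**Figure D4:**
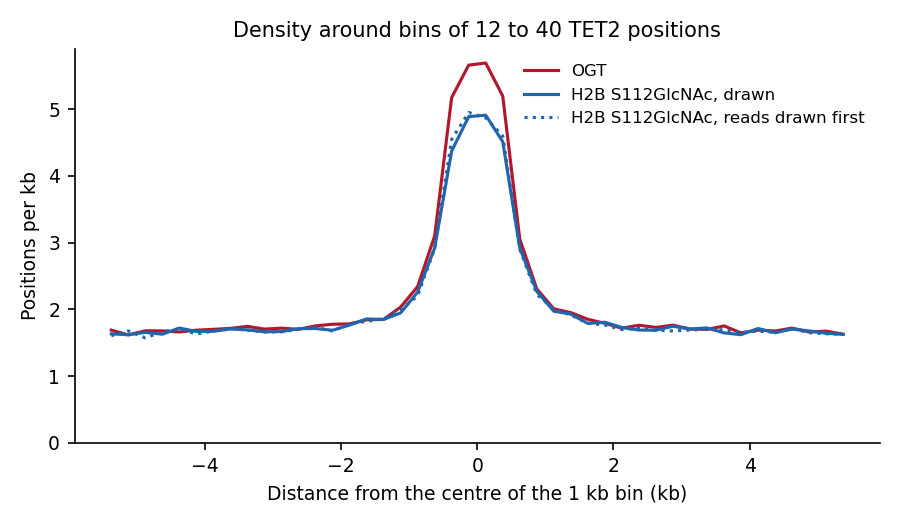
Mean density of OGT and of H2B S112GlcNAc positions per kb (y axis) against the distance in kb from the centre of 1 kb bins with 12 to 40 TET2 positions (x axis), outside bins higher in OGT. Both peak at the centre, OGT at a fold of 3.18 and H2B S112GlcNAc at 2.77, and they lie together more than 1 kb away.

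The distance between strands differed between the libraries and between kinds of bins. The distance from each plus-strand 5′ end to each minus-strand 5′ end was counted and set against its mean at 350 to 400 bp. A distance of 43 bp, the read length less 1, means that both reads cover the same bases. Away from shared dense bins and from bins higher in OGT, the number of pairs at 43 bp was 2.69 times the far level in OGT. In drawn H2B S112GlcNAc it was 1.91 times there. That set of bins includes TET2-rich bins. In TET2-rich bins it was 16.4 and 8.33 times, and 5.51 times in TET2. In the bins higher in OGT it was 20.2 times for OGT. In the shared dense bins, the densest of all, it was 2.96 times in OGT and 2.29 times in drawn H2B S112GlcNAc. These are near the values away from shared dense bins and bins higher in OGT. Against nearer distances, still beyond the read length, OGT pairs around 43 bp were 8.24 times as dense in TET2-rich bins. In bins higher in OGT they were 4.76 times as dense. The order of these kinds of bins thus depended on the distance set beside, and no ranking is read from it. In these sets of bins the highest number of pairs lay at 42 to 44 bp in each library. The exception was drawn H2B S112GlcNAc in bins higher in OGT, which had at most 3 pairs at any distance. Pairs at this distance were thus more frequent in OGT than in H2B S112GlcNAc in the same TET2-rich bins, where the density of OGT was also higher; the part of such pairs in the density was not tested.

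**Figure D5:**
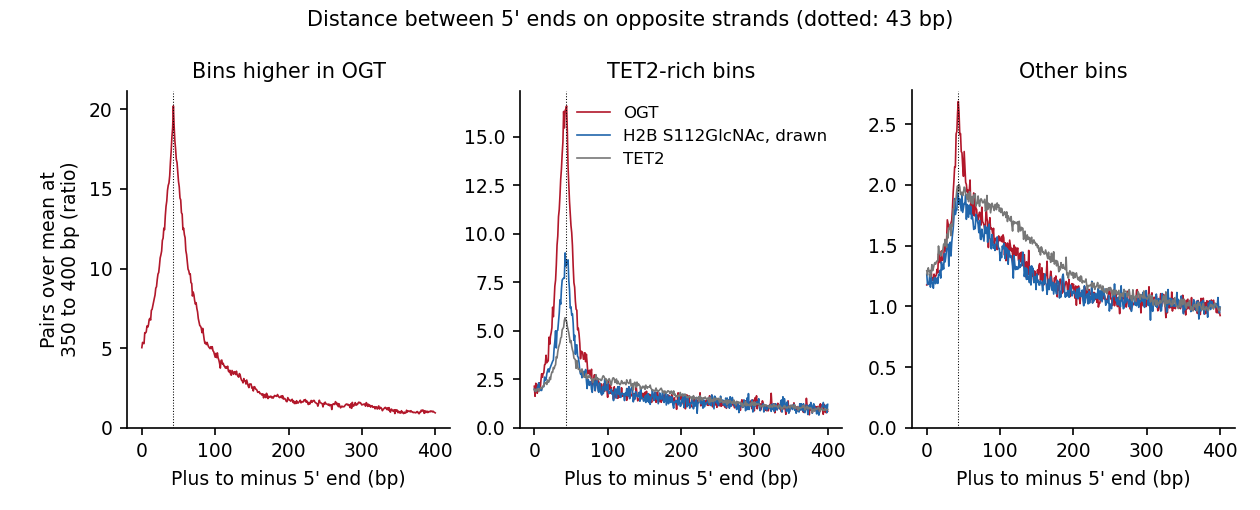
Number of pairs of 5′ ends on opposite strands over the mean number at 350 to 400 bp (y axis) against the distance from the plus to the minus end in bp (x axis), in bins higher in OGT (OGT only), in TET2-rich bins and in the other bins. The other bins are those outside shared dense bins and bins higher in OGT, and they include TET2-rich bins. All curves peak near 43 bp, the read length less 1, marked by the dotted line, at 20.2 in bins higher in OGT.

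A small share of positions also matched base by base. Outside shared dense bins and bins higher in OGT, 3561 pairs of an OGT and a drawn H2B S112GlcNAc position had the same 5′ end and strand, against a mean of 2269 at each distance of 1 to 5 bp, which is 1.57 times as many. TET2 and OGT at equal depth gave 1.59 times, and TET2 and H2B S112GlcNAc 1.52. The excess at exactly the same base was thus present in all 3 pairs of libraries. Such matches were rare, at 0.203% of OGT positions with drawn H2B S112GlcNAc. Of TET2 positions 0.241% matched OGT and 0.194% matched H2B S112GlcNAc.

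The libraries were spread alike over chromosomes. Outside shared dense bins the ratio of OGT to H2B S112GlcNAc positions lay between 0.981 (chromosome 13) and 1.0 (chromosome 17). With the dense bins kept, chromosome 9 had the highest ratio, 1.04, and it holds the dense stretch with the most positions. Without dense bins the ratio was under 1 on 18 of 19 chromosomes, since 2.91% of OGT and 2.13% of drawn H2B S112GlcNAc positions had been left out with them. Genes at the loci above are not named, because gene annotation of mm9 was not used here.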

How the data were processed

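Each library was read from the deposited list of aligned reads. Its deposited score column held a single constant and was not used. The submitters' processing notes name mm9, CASAVA 1.4 and Bowtie 0.12.2 without their roles. The sources used here do not say how reads with several matches were placed. The OGT file names chromosomes by RefSeq identifiers in chromosome order.

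Distinct 5′ ends per strand on chromosomes 1 to 19 were counted in bins of 1, 10 and 100 kb, without a shift, in bins with a position in any of the 3 libraries. The H2B S112GlcNAc library was drawn down to 1814416 positions with a fixed seed. Python 3.11.15, numpy 2.4.6 and scipy 1.17.1 were used. Intervals are exact (Clopper-Pearson for ratios and shares, Poisson for means, 95%) and speak to counting error only, because PCR copies of a molecule are not independent of each other. The calling script was tested on simulated data.

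Named loci are, for each bin size and direction, the 8 with the interval farthest from 1, and the 8 bins of 1 kb with the highest smaller count. Comparison, rules and bin sizes were chosen with earlier results of these data known.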

Additional observations from a re-analysis of the deposited data

Results flagged for a closer look

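Reads outside chromosomes 1 to 19 entered no comparison. Of the OGT reads 67439 lay on chromosome X (3.09% of the library), 706 (0.0324%) on Y and 498 (0.0228%) in mitochondrial DNA. Of the H2B S112GlcNAc reads 144392 lay on chromosome X (3.11%), 1271 (0.0273%) on Y and 1209 (0.0260%) in mitochondrial DNA. These reads are listed only because the comparison leaves them out. No signal is read from them, since no control library was used here.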

How the results depend on the processing

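Of 129 values under other settings 90 stayed within a set bound. The bound was 1.5 times for counts, the spread over chromosomes for correlations and variance over mean, and the exact interval for shares and ratios. Counts, shares and variance over mean hold no direction of their own. The few ratios among the 129 did not cross 1, but the ratios in the highest TET2 groups were not among them. With reads drawn first those went from 1.39 to 0.989 (1 kb), 1.28 to 0.975 (10 kb) and 1.28 to 0.945 (100 kb). The noise-corrected correlation was 0.734 in 1 kb and 0.862 in 10 kb bins without shared dense bins, and 0.737 and 0.860 without the top 0.1% TET2 bins. The share of top OGT bins that were top H2B S112GlcNAc bins without shared dense bins was 9.11% (1 kb) and 30.1% (10 kb), lower by construction, since those bins are top in both libraries. Of all bins left, 0.125% and 0.101% were top H2B S112GlcNAc bins. For the top 1% the share of top OGT bins was 31.3% and 47.2%, with reads drawn first 35.6% and 72.9%, and with every read 73.1% in 10 kb bins.

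Counts of bins higher in OGT moved to 298 (1 kb, full H2B S112GlcNAc library), 134 (10 kb, every read) and 41 (100 kb, without shared dense bins). A 99% interval gave 43 in 10 kb and 32 in 100 kb bins, and lower ratios (2 with the interval beyond 1.5, and lower still in 100 kb bins) gave 252, 310 and 168. Bins higher in H2B S112GlcNAc were 0, 1 and 3 at 99%, and 34, 311 and 138 at the lower ratios. With every read 60 bins of 10 kb were higher in it, and in 1 kb bins the full library gave 0 and reads drawn first 1. Counting error limits small bins, and the cause of the other shifts was not tested.

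The variance over the mean with positions counted once was 10.9, 74.2 and 271 in OGT (1, 10 and 100 kb bins) beside 5.95, 40.6 and 154 in H2B S112GlcNAc. With every read the values were 1755, 4958 and 6618 in OGT beside 1624, 4860 and 7101 in H2B S112GlcNAc, so the order of the libraries turned in 100 kb bins. Leaving out shared dense bins gave 1.63, 4.08 and 20.1 (OGT) beside 1.29, 3.21 and 18.4 (H2B S112GlcNAc).

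The ratio of OGT to H2B S112GlcNAc in shared dense bins was 1.02 with every read and 1.03 with reads drawn first, against 1.37. At no TET2 position it was 0.974 with reads drawn first. At 11 to 15 TET2 positions it was 1.18 with every read and 1.12 without bins higher in OGT. Settings with reads drawn first or without bins higher in OGT, and all settings of the ratios, were chosen after seeing the data. The density at gene start sites and the gene lists were not run, because no annotation of mm9 was used here. No paired analysis was possible because there was a single library on each side.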
